A study of Mus musculus with 2 samples.

Results

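The genes described here encode membrane and cytoskeletal proteins of lens fibre cells, with a nuclease and a transcription factor of the same cells. They were read on 2 one-colour arrays of mouse retina RNA at postnatal day 14. The listed members were Mip, Lim2, Gja3, Bfsp1, Bfsp2, Lgsn, Dnase2b and Hsf4, and a probe belonged to a member when its RefSeq transcript accession matched that symbol. Of the 8 genes 7 had a probe, 1 each, out of 27231 probes with a symbol and 55669 probes in all. Dnase2b, the nuclease that digests the DNA of maturing fibres, matched none and is not analysed here. Probes named by other kinds of accession were not assigned to genes, so further probes of a member may lie among them. The WT array carried RNA of wild-type retina, and the Mef2d KO array carried RNA of Mef2d KO retina, with 1 array for each genotype. Mef2d encodes a MEF2 family transcription factor, and the comparison asks how retinal expression differs without it. The deleted part of the gene, the strain, the number of animals and whether animals were pooled are not given in the sources used here.

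Lens fibre cells elongate from the lens epithelium, fill with crystallins and then lose their nuclei and organelles. Water channels, gap junctions and a filament network particular to these cells keep the fibres packed and transparent. The labelled tissue is retina, and its 16 marker genes, such as Gnat1 and Grm6, were all well above background on both arrays. In RNA of a whole tissue, fewer cells of a type and less RNA per cell cannot be told apart.

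Each value below is the scanner signal of a spot after background subtraction, in intensity units, or its log2 level relative to the array's 75th percentile. A difference is the log2 level on the Mef2d KO array minus that on the WT array. Errors written as ± are the scanner's own estimate of the error of 1 spot per array and leave out the variation between animals. Since each genotype has 1 array, the differences cannot be set against a spread between replicates, and no test was run. Mef2d read 252 and 758 by its probes on the WT array and 295 and 1083 on the Mef2d KO array, so neither was lower there. Whether these probes lie in the deleted part is not known here, so they do not check the label, and "Mef2d KO" below means the array so labelled. Both Xist probes were not well above background on the WT array, at 3.03 and 3.54, and read 817 and 418 on the other. Sex is not given in the labels used here and cannot be told apart from genotype.

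The 6 members well above background on both arrays went different ways. On the Mef2d KO array 3 were at least 2-fold lower (Mip, Gja3 and Bfsp2), 1 was at least 2-fold higher (Lgsn) and 2 were within 2-fold (Bfsp1 and Hsf4). Across the 16185 genes read on both arrays, the share at least 2-fold lower was 1.74%, and the share at least 2-fold higher was 0.618%. Lower genes made up 73.8% of those 2-fold apart. Scaling to the median put this share at 53%, quantile normalization at 51.2%, cyclic loess at 51.3% and a normexp background correction at 62.8%. Lim2 was read on the WT array only and was lower by its bound. Among the 1057 genes read on 1 array only, 176 (16.7%) were at least 2-fold lower by such a bound. Of the 1057, 920 were, like Lim2, read on the WT array only. The median difference of the 6 members was -0.86, beside -0.0060 over all genes read on both arrays.

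**Figure D1:**
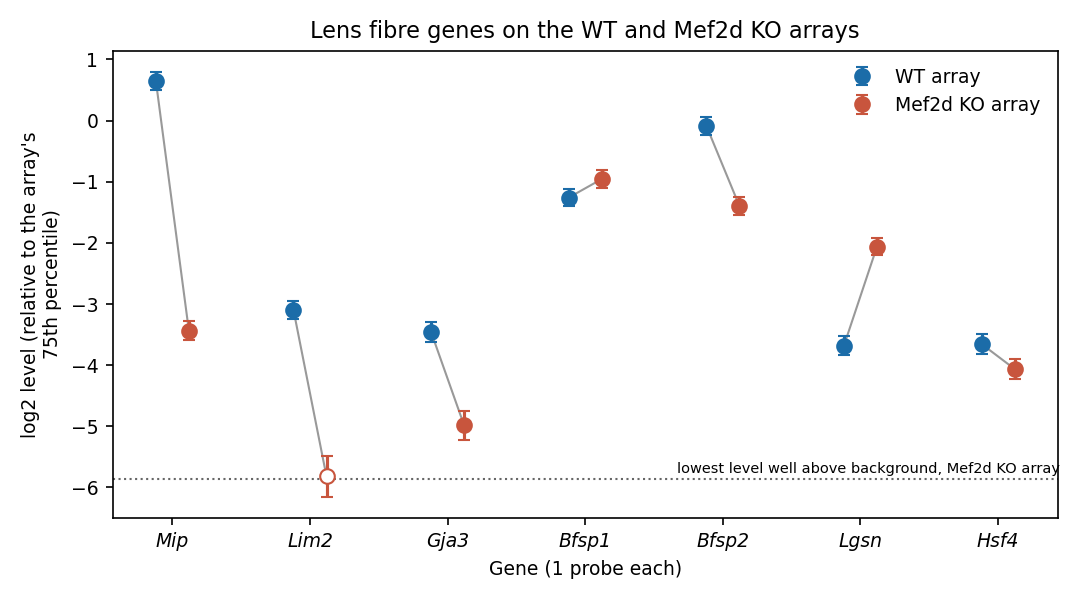
Log2 level of each member's probe relative to the array's 75th percentile, on the WT array (blue) and the Mef2d KO array (red), with bars for the scanner error of 1 spot. The open circle marks Lim2, which was not well above background on the Mef2d KO array. Mip goes from 0.65 to -3.44, while Lgsn goes from -3.68 to -2.06.

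The membrane protein genes Mip, Lim2 and Gja3 were each lower on the Mef2d KO array. Mip, the water channel that is the most abundant membrane protein of lens fibres, gave a signal of 1268 on the WT array and 79.2 on the Mef2d KO array. The WT spot stood far above its surroundings, with a median pixel signal of 1212.5 over a local background of 40.0, and the Mef2d KO spot read 116.0 over 35.0. Mip was 17.0-fold lower (difference -4.09 ± 0.21), and -3.27 with normexp background correction, which draws dim signals towards each other. Among 1515 other genes within 0.5 of its mean level, 1 had a difference as negative as that of Mip.

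Lim2 encodes a fibre membrane protein of the family of PMP22 and the claudins. Its spot read 94.4 on the WT array and 15.2 on the Mef2d KO array, where it was not well above background. A bound sets a gene's level against its measured level on the other array, or against the dimmest level called well above background there if higher. For Lim2 the measured level lay just above that dimmest level. Its bound was therefore the measured difference, -2.72 ± 0.36 or 6.60-fold lower, and not a firm minimum. Dim spiked-in controls were lower too, as given below for Gja3. With normexp background the measured difference was -1.08, so the size of the bound rests on how background was handled. Beside it on the chromosome lie Nkg7, a gene of cytotoxic lymphocytes, which differed by 0.05, and Siglecg. Siglecg was read on the WT array only, with a measured difference of -0.63.

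Gja3 encodes a connexin that joins fibre cells through gap junctions. It read 73.4 on the WT array and 27.1 on the Mef2d KO array, both well above background but dim. The difference was -1.53 ± 0.28, 2.88-fold lower, and it was -0.64, within 2-fold, with normexp background. Under normexp background 0.636% of all genes were at least 2-fold lower. At this level, 6.28% of the 1227 other genes within 0.5 of its mean level were at least 2-fold lower, and 21 of them differed by at least as much as Gja3. The array's spiked-in controls, meant to be added alike to every labelling, showed a like tilt among dim spots. The control with levels of -4.19 and -4.90 differed by -0.74 ± 0.25 (SD over 34 spots), and the next brighter one, at -2.84 in WT, by -0.10.

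**Figure D2:**
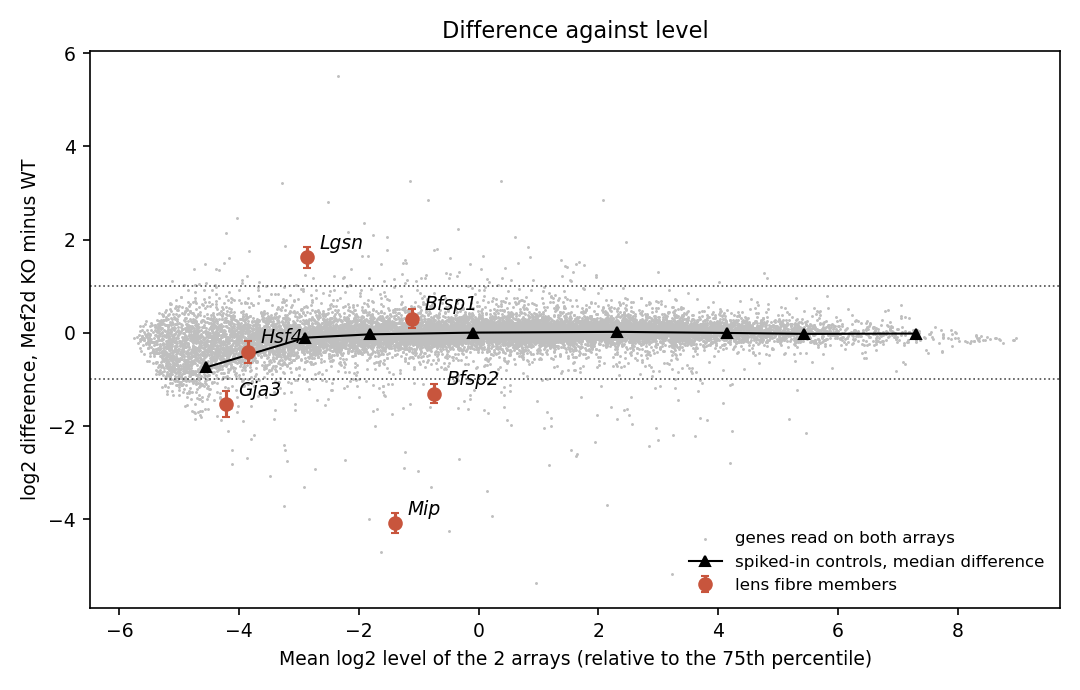
Log2 difference, Mef2d KO minus WT, against the mean log2 level of the 2 arrays for the 16185 genes read on both (grey), the 6 members among them (red, bars for the scanner error) and the medians of spiked-in controls that were well above background in every spot (black triangles). Dotted lines mark 2-fold. Mip, at -4.09, Bfsp2, at -1.31, and Lgsn, at 1.62, stand away from the controls at their level, while Hsf4, at -0.41, does not.

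The filament protein genes went apart. Bfsp1 encodes filensin and Bfsp2 encodes phakinin, which assemble with each other into the beaded filament, the intermediate filament of lens fibres. Bfsp2 read 761 on the WT array and 327 on the Mef2d KO array, a difference of -1.31 ± 0.20. Bfsp1 read 337 and 442, a difference of 0.30 ± 0.20. The difference of Bfsp2 was past 2-fold under every scaling and background tried, from -1.32 to -1.13, and that of Bfsp1 stayed positive, from 0.21 to 0.48. Within these arrays the difference of Bfsp1 exceeded that of its partner by 1.61 ± 0.29, a contrast that no constant scaling of an array can alter, and by 1.46 with normexp background and 1.62 with cyclic loess. Of the genes near the level of Bfsp2, 0.701% were at least 2-fold lower. Near the level of Bfsp1, 128 of 1596 other genes had a difference at least as high as that of Bfsp1.

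Lgsn was the member at least 2-fold higher on the Mef2d KO array. It encodes lengsin, a lens protein that descends from glutamine synthetases. Its spot read 63.0 on the WT array and 206 on the Mef2d KO array, a difference of 1.62 ± 0.22 and 3.07-fold higher, or 1.03 with normexp background. Of the 1323 other genes near its level, 0.605% were at least 2-fold higher. Within the arrays, the difference of Lgsn exceeded that of Mip by 5.71 ± 0.31. Glul, the glutamine synthetase of Mueller glia, differed by -0.17 (0.01 with median scaling).

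Hsf4 encodes a heat shock transcription factor that lens fibres need to mature. It read 64.1 and 51.3, a difference of -0.41 ± 0.23, and 315 of 1227 other genes near its level had a difference as negative. Its probe was designed to 1 of several Hsf4 transcripts, so the others may not be read by it. Of 11 measured genes among other heat shock factors and chaperones, none was 2-fold apart. The furthest were Hsf5 (0.59), Hsp90aa1 (-0.26), Hsf2 (-0.24) and Dnajb1 (0.14). Their median was 0.05, and -0.0026 with normexp background.

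The members lie on different chromosomes, and the genes measured beside them were not 2-fold apart. Of the 14 nearest measured genes on either side of the 7 members, 13 were read on both arrays and these 13 were within 2-fold, from -0.32 for Tmem108, beside Bfsp2, to 0.30 for Timeless, beside Mip. The other was Siglecg. The spots around each member on the array were not shifted either. Their median differences lay between -0.12 and 0.0041 over 73 to 81 spots within 5 rows and columns.

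Promoter windows are shown for Mip, the member furthest below WT, for Lgsn, the member at least 2-fold above WT, and for Gja3, the member with a MEF2 element. The windows run from 250 bases before to 50 bases after the start site and come from RefSeq on GRCm38.p6. They were found for 7 members, with a further window for Gja3, and not for Hsf4. Capitals mark matches to the heat shock element (GAANNTTC), the MEF2 element (CTA and TAG with any 4 bases between), the MAF element (TGCTGA) and the CRX element (TAATCC), searched on both strands. The windows are chr10:128225560-128225859 on the + strand for Mip, chr1:31176185-31176484 on the + strand for Lgsn and chr14:57057981-57058280 on the - strand for Gja3.
Mip: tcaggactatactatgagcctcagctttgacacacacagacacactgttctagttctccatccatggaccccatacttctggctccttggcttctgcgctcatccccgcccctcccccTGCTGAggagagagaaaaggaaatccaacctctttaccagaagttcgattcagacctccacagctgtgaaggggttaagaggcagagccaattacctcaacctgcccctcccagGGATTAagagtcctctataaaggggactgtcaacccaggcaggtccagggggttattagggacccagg
Lgsn: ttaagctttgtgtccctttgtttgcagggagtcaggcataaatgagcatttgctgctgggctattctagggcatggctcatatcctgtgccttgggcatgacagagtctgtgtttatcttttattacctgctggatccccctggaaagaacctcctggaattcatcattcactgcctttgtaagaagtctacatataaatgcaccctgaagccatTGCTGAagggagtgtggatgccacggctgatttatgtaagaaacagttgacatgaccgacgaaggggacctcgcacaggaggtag
Gja3: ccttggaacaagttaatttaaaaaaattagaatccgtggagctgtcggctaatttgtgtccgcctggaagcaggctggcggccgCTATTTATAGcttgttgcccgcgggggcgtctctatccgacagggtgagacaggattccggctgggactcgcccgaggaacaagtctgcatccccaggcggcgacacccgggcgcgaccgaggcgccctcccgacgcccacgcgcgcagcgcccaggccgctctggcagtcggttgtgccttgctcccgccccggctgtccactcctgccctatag
The Gja3 window holds CTATTTATAG, starting 166 bases before the start site. No other member window held the MEF2 element, which stood in 3.69% of all 32851 windows. The MAF element, bound by large MAF factors, was in the windows of 4 members (Mip, Lim2, Bfsp1 and Lgsn) and in 19.5% of all windows. These 4 include members that were lower, higher and within 2-fold. The Mip window also held the CRX element, found in 7.06% of all windows, and the Dnase2b window held the heat shock element, found in 7.86%. A match is a stretch of letters, and binding was not measured.

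Genes past 2-fold were rare on the arrays as a whole, with 1.74% of the genes read on both lower and 0.618% higher. Among relatives of the members, few were 2-fold apart either. Of 9 measured aquaporins, the family of Mip, none was, with Aqp1 at -0.62, Aqp7 at -0.40, Aqp8 at 0.30 and Aqp2 at -0.26. Aqp12 was read on the WT array only, with a bound of at least 1.27-fold lower. Of 10 connexins described here, the family of Gja3, 1 passed 2-fold. It was Gjd3, with a difference of -1.04. It came within 2-fold with median scaling (-0.86), cyclic loess (-0.62) and normexp background (-0.35). Gja10 differed by -0.81, Gja5 by -0.73 and Gjd2 by -0.29. Gja6, read on the WT array only, had a bound of at least 1.41-fold lower. All of these but Gjd2 were dim, like Gja3. None of 6 relatives of Lim2 was 2-fold apart, and the furthest were Perp (0.55), Emp2 (-0.50), Emp1 (-0.34) and Pmp22 (-0.27). Of 10 other intermediate filament genes none was 2-fold apart, with Des at -0.91, Prph at 0.49, Nes at -0.21 and Synm at 0.18. Of 5 measured DNase genes none was 2-fold apart either, with Dnase1l2 at -0.90, Dnase1 at -0.38, Dnase2a at -0.15 and Dnase1l1 at -0.12.

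Other genes of the lens were lower in part. All 16 crystallins were read on both arrays. Of these, 10 were lower by 2-fold or more and 1 was higher by 2-fold or more, with a median difference of -1.84. The furthest were Crygn (-2.91), Crybb2 (-2.64), Cryba2 (-2.51) and Cryba1 (-2.30). The higher one was Crygf (1.47), whose other probe stayed within 2-fold, at 0.76. The 5 within 2-fold were Cryga to Cryge. These and Crygf are close copies whose probes may read each other. Mip was further below WT than any of the 16 crystallins, and Bfsp1 was not below WT at all. Of 18 other lens genes described here 3 passed 2-fold, all lower, namely Grifin (-1.62), Prx (-1.43), which encodes periaxin of the fibre membrane skeleton, and Col4a3 (-1.02). Col4a4 differed by -0.85, and its other probe by -1.03. Col4a3 came within 2-fold with median scaling (-0.84), quantile normalization, cyclic loess (-0.76) and normexp background (-0.53), which left 2 past it. Their median was -0.14, and 0.04 with median scaling. Of 12 lens transcription factors 1 passed 2-fold. Foxe3, which lens epithelium needs, differed by -1.64, and by -0.70 with normexp background. Pitx3 differed by -0.63, Mab21l1 by -0.45 and Meis1 by -0.23.

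**Figure D3:**
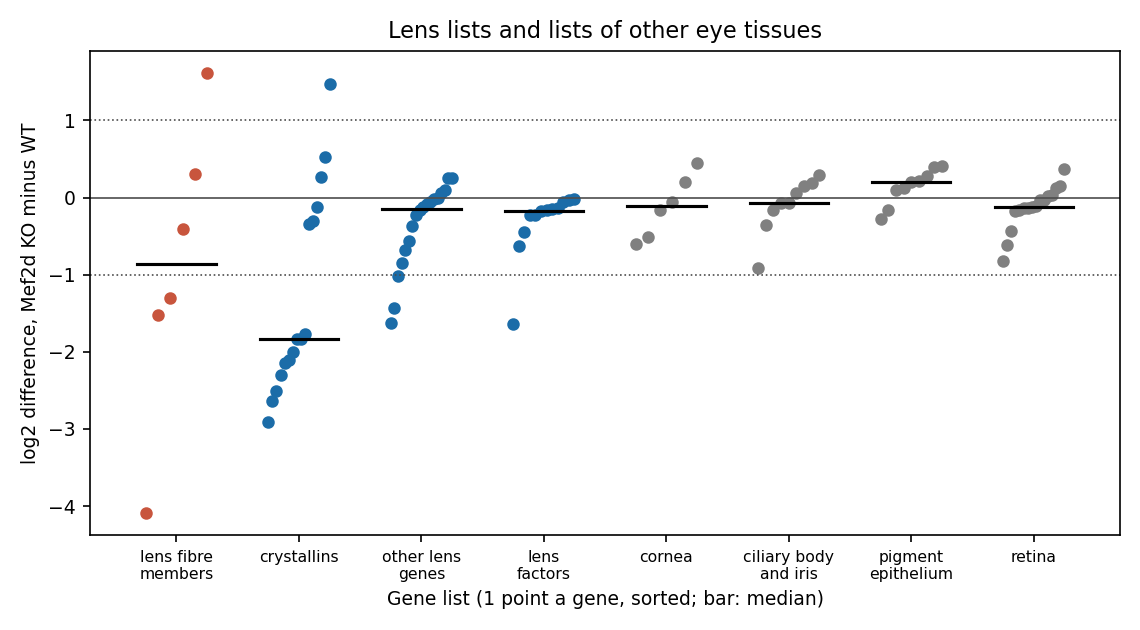
Log2 differences, Mef2d KO minus WT, of the genes read on both arrays in each list, 1 point a gene with a bar at the median, for the members (red), other lens lists (blue) and other tissues of the eye (grey). Dotted lines mark 2-fold. The medians are -0.86 for the members and -1.84 for crystallins, and lie between -0.17 and 0.20 for the other lists. Median scaling moves every point up by 0.18, which turns the medians of other lens genes, lens factors, cornea, ciliary body and iris, and retina positive.

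Most of the lens markers listed here were lower, as were some members. All 10 lens markers used here were read on both arrays, and 9 of them were lower by 2-fold or more, or 8 with normexp background. Over all genes the share was 1.74%, or 0.636% with normexp background. All 10 also stand in the lens lists above, 7 of them as crystallins. The list holds none of Cryga to Crygf, so its count depends in part on that choice. The remaining marker, Birc7, differed by -0.06. The summed signal of the 10 markers, relative to the 75th percentile, stood at a log2 level of 7.45 on the WT array and 5.31 on the Mef2d KO array. These sums differed by -2.14, while those of all 16 crystallins differed by -1.33. The part of lens RNA in the members' values was not tested. Markers of other tissues of the eye were within 2-fold. Of 9 cornea markers 6 were read on both arrays, with a summed level of 3.83 and 3.59, and the defining markers Krt12, Kera and Lum were not well above background. Of 10 ciliary body and iris markers 9 were read, with a summed level of 3.72 and 3.67, and of 10 pigment epithelium markers 9 were read, with 5.36 and 5.52. The cornea sum, 11467 units on the WT array, rests mostly on Trp63 (8356) and Aldh3a1 (2938). The ciliary body and iris sum, 10642 units there, rests mostly on Tgfb2 (7583). The 16 retina markers had a summed level of 10.21 and 9.97.

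**Figure D4:**
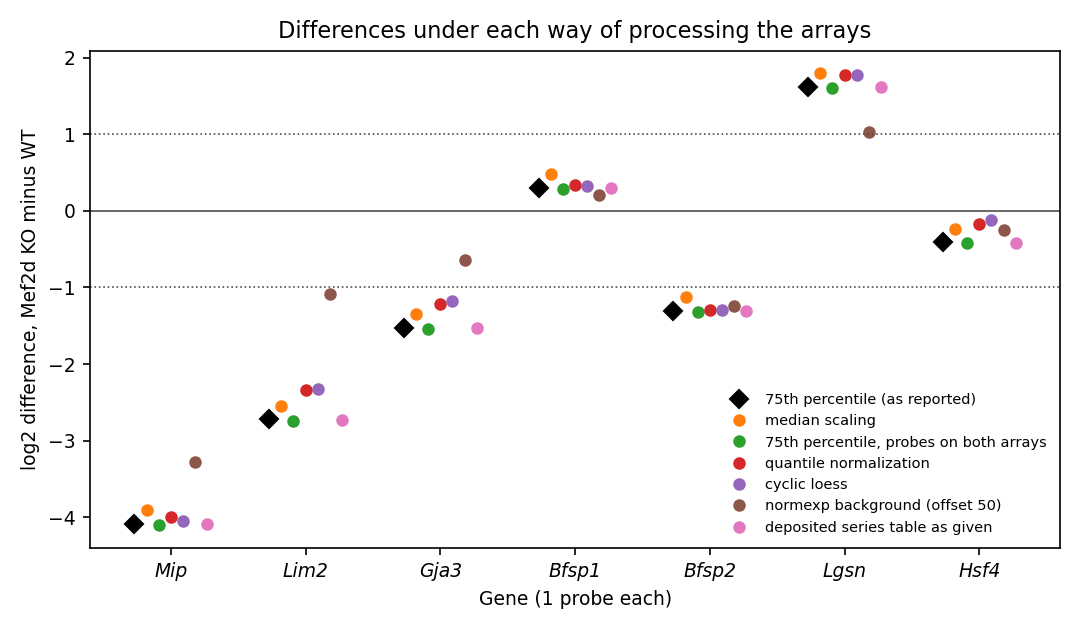
Log2 difference, Mef2d KO minus WT, of each member's probe under the reported scaling (black diamonds) and 6 other ways of processing the arrays (circles). Dotted lines mark 2-fold. No member changes sign, and normexp background brings Gja3 to -0.64 and Mip to -3.27.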

How the data were processed

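Per the labels' protocols, total RNA was amplified and given a Cy3 label for one-colour Agilent arrays, 1 per group. Per the file headers, the deposited intensity of a spot comes from Agilent Feature Extraction 10.10.1.1 after subtraction of background and spatial detrending. The deposited series table holds these intensities times a constant, 1.88 on the WT array and 1.76 on the Mef2d KO array. That table is on a linear scale without centring, its medians are 155.1 and 136.6, and the basis of its constants stays unknown. Both arrays share a slide and a scan.

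Levels are the log2 processed signal less the array's 75th percentile over 59305 probe spots, 807.5 on WT and 857.9 on Mef2d KO. On these arrays 75.5% and 69.6% of probe spots were well above background, by the scanner's flag, and none was saturated. Control spots and outlier spots (106 and 126) were left out and spots of a probe averaged. Probes were named by RefSeq accession through the GRCm38.p6 annotation, which matched 27231 of 55669. The array design names mm9, so the annotation gave only symbols, chromosomes and gene order, and promoter windows carry their own GRCm38.p6 coordinates. A gene was represented by its brightest probe. Replicate spots of 348 probes gave a median SD of the difference of 0.069, and 0.25 at mean levels of -4 and below.

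The text names the members, up to 4 genes per list with the largest differences, bounds, neighbouring genes and Mef2d. Crygf, Cryga to Cryge, Birc7, Xist, Trp63, Aldh3a1, Tgfb2 and the unread markers were named after their values were seen. Some genes of the lists are not reported here and were left out of their counts. Members and lists were chosen with earlier results of these data known. Alternatives were other scalings, normexp background on median signals (offset 50), the series table, the mean over probes and other filters on dim probes. The scaling was tested on simulated data. Tools were R 4.3.3, limma 3.58.1, Python 3.11.15, numpy 2.4.6, pandas 2.3.3 and matplotlib 3.10.9.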

Additional observations from a re-analysis of the deposited data

How the results depend on the processing

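With 1 array per group the spread between animals is unknown, and the limit for dim probes is their signal over background. Across 6 other scalings, backgrounds and sources of the values, none of the 7 members changed sign. Of these 42 member values 32 moved by less than the scanner error of the difference and 10 by more. All 10 came from quantile normalization, cyclic loess and normexp background. The other alternatives shift every member by about a constant smaller than that error, so their values could not move by more. With normexp background the members at least 2-fold lower numbered 2 in place of 3, since Gja3 came within 2-fold, and the members' median difference was -0.44. Other lens genes at least 2-fold lower numbered 2 in place of 3 with normexp background, median scaling, quantile normalization and cyclic loess. Without a filter on dim probes Lim2 joined the median, which was -1.31. The count of crystallins at least 2-fold lower was 10 under every alternative. Over the whole table, 281 genes were 2-fold or more lower and 100 were 2-fold or more higher. Scaling to the median gave 170 lower and 151 higher, quantile normalization 164 lower and 156 higher, cyclic loess 162 lower and 154 higher, and the normexp correction 103 lower and 61 higher. The median over all genes was 0.17 after scaling to the median. No paired analysis was possible because each group has 1 array. The cause of these shifts was not tested.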
